A study of Mus musculus with 20 samples.

Results

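Tumors that carried much immediate-early transcript were set against tumors that carried little, across all other genes. Of 20 breast tumors, the 6 with the highest and the 6 with the lowest score were compared, and the other 8 were kept apart as tumors that the comparison did not use. The score of a tumor was the mean, over Fos, Egr1, Junb and Atf3, of the z-score over the 20 tumors of log2(CPM + 1). CPM relates the count of a gene to the total count of its tumor, taken without Yam1 and AY036118, which lie over a ribosomal RNA gene. The tumors were thus chosen by the measured levels of these 4 genes, whose values are given as a description. All tumors arose on their own in the mammary glands of female [BALB/c-neuT x FVB/J] F1 mice, 1 tumor per mouse. Each mouse had inherited the neuT transgene, an activated rat Her2/neu oncogene, from a hemizygous BALB/c-neuT father and had a wild-type FVB/J mother. High and low tumors thus shared strain, sex and transgene, and no treatment is given for either. The study's methods give the age of the mice as a range common to all of them, not for single tumors. The transgene is expressed from the promoter of the mouse mammary tumor virus, so these tumors model 1 driver in mammary epithelium. The titles mark 9 tumors Lo and 11 Hi. What these marks stand for is not given in the sources used here, and the high and the low group each held 3 Lo and 3 Hi tumors.

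Immediate-early genes are transcribed within minutes of a signal, without new protein synthesis, because the factors that switch them on already sit at their promoters. Growth factor receptors such as Her2 reach them through the ERK pathway and serum response factor, which binds the CArG box, and through CREB, which binds the cyclic AMP response element (CRE). Their products are mostly transcription factors of the AP-1 and EGR families, together with phosphatases and RNA-binding proteins that shut the response off again. In tissue, handling and the time between death and freezing are also known to raise these transcripts, and the study's methods give no such time for single tumors, so its part in the score was not tested. Tumors were removed after death and frozen, and RNA came from small thawed pieces.

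Total counts ran from 38765682 to 65465755 per tumor, and Yam1 and AY036118 took 6.29% to 27.7% of them. No difference in this share was detected between the groups. It was 17.7% ± 6.64 (SD, n = 6) in high and 17.2% ± 4.11 in low tumors (two-sided exact permutation test, p = 0.894, smallest possible p = 0.0022). The totals without these genes did not differ detectably either (p = 0.937). The tumors were checked against epithelial markers, and 12 luminal genes, Krt8, Krt18 and Epcam among them, summed to between 3582 and 5164 CPM in the 12 tumors compared.

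Promoters of some of the genes described below are shown first, each with letters of a kind that such signals can act through. The promoter of Egr1 is not shown. Each line gives the 250 bases before a start of the gene in RefSeq, 5′ to 3′ on the strand of the gene, on GRCm38.p6. For Dusp1, Zfp36 and Atf3 this start lay inside the gene as counted. For Atf3, counted over chr1:191170296-191218039, it lay far inside. Capitals mark CRE letters in Fos, Junb, Atf3, Fosb and Dusp1, a CArG box in Zfp36, and the core of the interferon-stimulated response element (ISRE) in Isg15 and Ifit3, the last 2 standing for the interferon-stimulated genes described below.
Fos, chr12:85473640-85473889, plus strand: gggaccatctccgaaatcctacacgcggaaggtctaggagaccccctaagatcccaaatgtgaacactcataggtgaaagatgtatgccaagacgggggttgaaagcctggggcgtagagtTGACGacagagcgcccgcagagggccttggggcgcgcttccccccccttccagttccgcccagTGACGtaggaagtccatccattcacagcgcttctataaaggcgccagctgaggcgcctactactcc
Junb, chr8:84978749-84978998, minus strand: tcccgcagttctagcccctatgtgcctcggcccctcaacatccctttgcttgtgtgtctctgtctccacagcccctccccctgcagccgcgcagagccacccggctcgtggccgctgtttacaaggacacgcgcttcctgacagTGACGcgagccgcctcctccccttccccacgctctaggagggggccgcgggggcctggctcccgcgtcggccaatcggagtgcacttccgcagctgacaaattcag
Atf3, chr1:191183334-191183583, minus strand: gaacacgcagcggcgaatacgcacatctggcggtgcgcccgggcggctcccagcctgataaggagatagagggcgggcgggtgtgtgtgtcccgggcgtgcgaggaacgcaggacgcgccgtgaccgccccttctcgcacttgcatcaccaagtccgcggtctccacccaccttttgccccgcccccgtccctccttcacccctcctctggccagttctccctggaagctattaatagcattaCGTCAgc
Fosb, chr7:19310046-19310295, minus strand: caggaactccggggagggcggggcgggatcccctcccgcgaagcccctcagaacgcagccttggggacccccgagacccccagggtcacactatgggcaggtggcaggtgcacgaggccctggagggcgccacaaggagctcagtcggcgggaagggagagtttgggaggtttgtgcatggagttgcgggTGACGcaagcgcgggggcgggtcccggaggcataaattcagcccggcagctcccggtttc
Dusp1, chr17:26508473-26508722, minus strand: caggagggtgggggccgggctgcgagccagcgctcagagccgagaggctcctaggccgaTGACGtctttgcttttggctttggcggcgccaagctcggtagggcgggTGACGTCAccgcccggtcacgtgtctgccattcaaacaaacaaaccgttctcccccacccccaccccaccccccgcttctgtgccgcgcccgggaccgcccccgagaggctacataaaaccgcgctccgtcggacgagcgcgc
Zfp36, chr7:28379229-28379478, minus strand: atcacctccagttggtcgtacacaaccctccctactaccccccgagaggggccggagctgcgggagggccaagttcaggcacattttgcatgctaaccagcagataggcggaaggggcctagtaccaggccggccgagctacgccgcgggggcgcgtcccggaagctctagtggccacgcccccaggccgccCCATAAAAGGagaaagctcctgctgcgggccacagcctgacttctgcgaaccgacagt
Isg15, chr4:156200819-156201068, minus strand: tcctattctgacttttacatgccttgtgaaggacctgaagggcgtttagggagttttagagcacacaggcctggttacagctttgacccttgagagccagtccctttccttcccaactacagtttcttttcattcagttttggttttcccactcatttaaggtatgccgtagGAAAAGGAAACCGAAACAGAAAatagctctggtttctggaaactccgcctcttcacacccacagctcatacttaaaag
Ifit3, chr19:34583279-34583528, plus strand: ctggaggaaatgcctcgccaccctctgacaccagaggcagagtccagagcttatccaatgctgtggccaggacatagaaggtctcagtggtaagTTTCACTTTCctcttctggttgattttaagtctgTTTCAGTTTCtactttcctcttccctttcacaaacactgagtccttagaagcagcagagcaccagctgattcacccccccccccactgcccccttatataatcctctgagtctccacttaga
The search used TGACGTCA for the full CRE, TGACG for its core, GAAANNGAAA for the ISRE core and the CArG box by its consensus, on both strands, and a full CRE holds the core on each strand. Of 32851 windows of this length, 1.55% held a full CRE, 17.8% its core, 2.98% the ISRE core and 1.47% a CArG box. Fos held CRE cores 129 and 66 bases before its start, Junb 1 at 106, Fosb 1 at 60, and Atf3 1 on the other strand that began 7 bases before the start. Dusp1 was the one shown with a full CRE, at 143 bases. Isg15 held 3 overlapping ISRE cores, 78 to 66 bases before its start, and Ifit3 held 2 on the other strand. A CRE core stood in 6 of 10 windows found for other AP-1 and related genes and an ISRE core in 5 of 8 windows found for interferon-stimulated genes. The CRE core stood in 10 of 13 windows of other primary response factors, 5 of 13 of ERK feedback genes and 2 of 6 of mRNA decay genes. A CArG box stood in 0 of 10 windows of the AP-1 list and 1 of 13 of other factors. It stood in 1 of 13 windows of ERK feedback and 1 of 6 of mRNA decay genes. These counts are too small to be set against the 1.47% of all windows. These are matches of letters, and binding was not measured. Letters farther than 250 bases before the start were not searched. A gene shown without a CArG box or a CRE may thus hold one farther out.

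Fos, the AP-1 subunit most often used as a mark of recent signaling, helped to rank the tumors, so its difference between groups follows from the rule. The 6 high tumors held 46.7, 113, 188, 221, 252 and 453 CPM, and the low tumors lay between 32.8 and 39.7 CPM. The low tumors were thus nearly uniform (36.7 ± 2.47 CPM, SD, n = 6), whereas the high tumors varied widely (212 ± 140 CPM). Egr1, a zinc-finger factor, ran from 124 to 568 CPM (median 245) in high and from 74.1 to 123 CPM (median 102) in low tumors, with the top value in the tumor Hi_1. Junb, an AP-1 partner that restrains Jun, ran from 109 to 155 CPM in high and from 59.3 to 105 CPM in low tumors. Atf3, a stress-responsive factor that dimerizes with AP-1 members, overlapped between groups, at 9.20 to 15.9 CPM in high and 5.30 to 9.98 CPM in low tumors.

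The score cut the tumors where they were close. The last tumor inside the high group, Lo_11, scored 0.27 and the first outside, Lo_7, scored 0.25. On the low side Hi_8 scored -0.45 and Hi_10, outside, -0.41. Lo_11 held the least Fos of the high tumors (46.7 CPM), below 7 of the 8 middle tumors, whose Fos median was 75.2 CPM, beside 13.3 CPM of Atf3. A score without Junb or without Atf3 left Lo_11 out of the high group, and totals that kept Yam1 and AY036118 left out Lo_11 and Lo_6. Those totals also left Hi_8 out of the low group, and a score without Fos or without Egr1 left out Hi_8 and Lo_9. At the other end, Hi_1 scored 2.17 and Hi_3 -1.44.

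**Figure D1:**
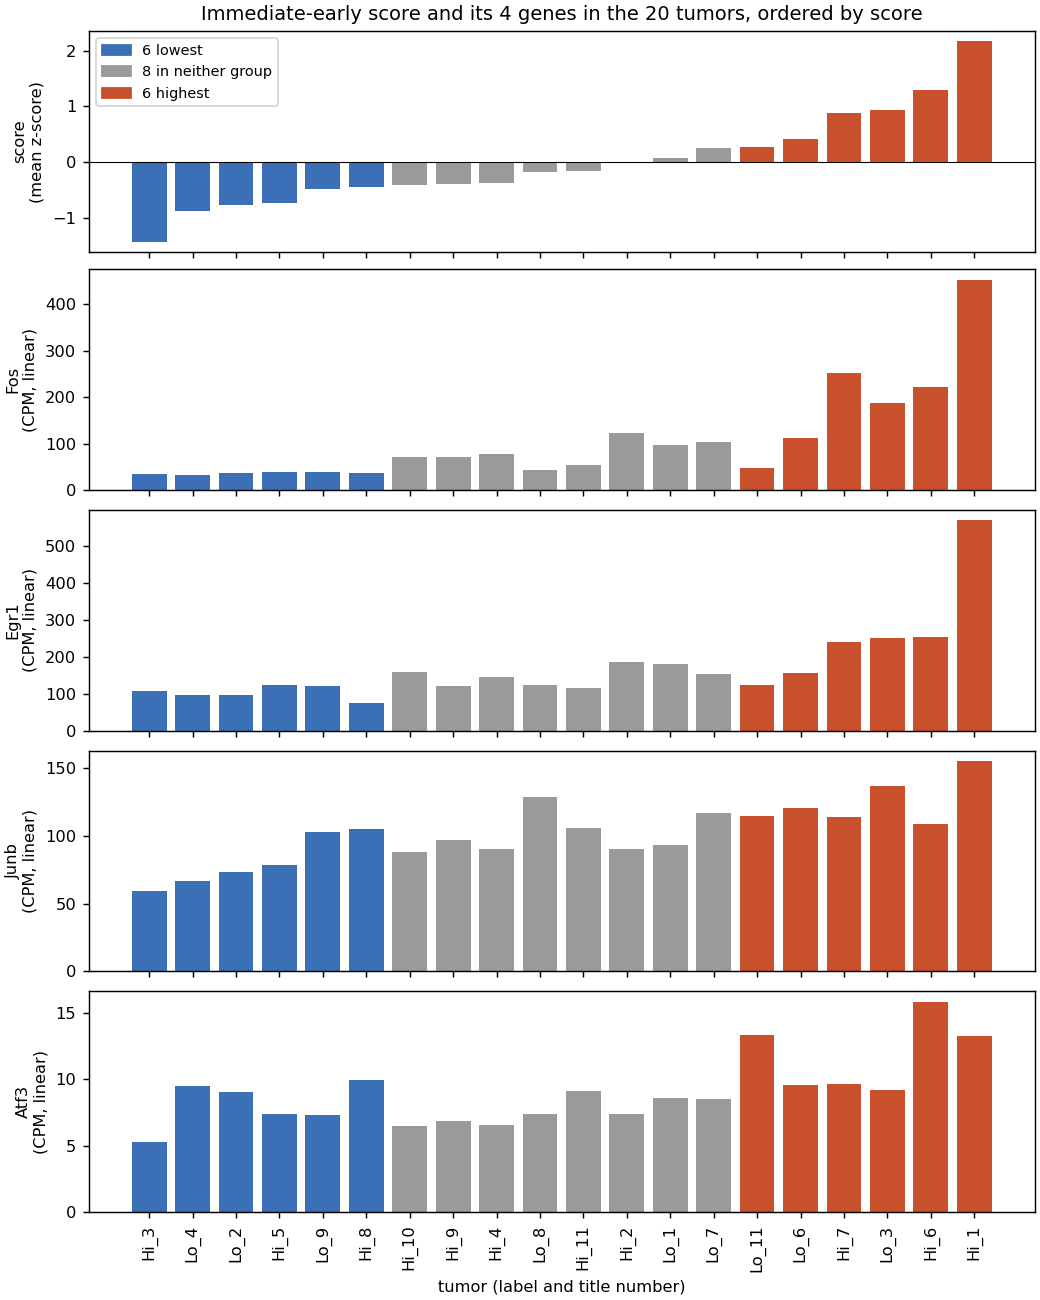
Score and CPM of Fos, Egr1, Junb and Atf3 (linear axes from 0 for CPM) in each of the 20 tumors, ordered by score, with bars for the 6 lowest tumors, the 8 in neither group and the 6 highest. Fos stays between 32.8 and 39.7 CPM in the 6 lowest tumors and reaches 453 CPM in Hi_1, while Lo_11 stands out among the highest by its low Fos and high Atf3.

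Across all other genes, few or no genes separated the groups once all tests were counted, depending on the tool. By edgeR's quasi-likelihood test, 0 of 18652 genes passed an adjusted p of 0.05 (0%). An unadjusted p under 0.05 was reached by 1204 genes (6.46%), of which 417 were higher (2.24%) and 787 lower (4.22%) in high tumors. All counts of list members at this limit given below are to be read beside these shares. DESeq2, run as an alternative, called 37 of 16435 genes (0.225%), 12 higher (0.073%) and 25 lower (0.152%). The edgeR adjusted p of those 12 lay between 0.0644 and 0.507, and that of the 25 between 0.197 and 0.647. In 22 genes every high tumor was above every low tumor (0.118% of those tested) and in 18 every one was below (0.0965%). A log2 fold change given without a DESeq2 call is a measured difference that did not pass a test after adjustment, and adjusted p-values are those of edgeR unless DESeq2 is named.

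Fosb, the closest relative of Fos and another AP-1 subunit, had the widest difference of the genes that DESeq2 called. The 6 high tumors held 2.44, 12.9, 45.2, 45.3, 59.2 and 156 CPM, and the low tumors lay between 1.06 and 2.40 CPM. The groups did not overlap, but Lo_11, at 2.44 CPM, was close to the highest low tumor. The log2 fold change was 4.89 ± 0.73 (SE), with an adjusted p of 0.0774 by edgeR and 1.83e-08 by DESeq2. Across the 26 other edgeR settings that gave a value its adjusted p ran from 0.0024 to 0.9998 and passed in 8, among them the fits without Lo_11 and without Lo_6. DESeq2 called it in all 12 fits that left out 1 tumor.

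Differences in the other AP-1 genes were smaller, and none passed either test between the groups. Jun, the main partner of Fos, ran from 79.0 to 166 CPM (median 99.7) in high and from 45.9 to 93.3 CPM (median 69.7) in low tumors, which overlapped. Its log2 fold change was 0.62 ± 0.18 (SE, edgeR adjusted p = 0.647, DESeq2 adjusted p = 0.116), and its gene shares a stretch with the antisense gene Junos, from which it cannot be told apart without strand. Maff, a small Maf protein, was higher by 0.46 ± 0.19 on the log2 scale (adjusted p = 0.735). Jund, which is abundant in resting cells, differed by 0.18 ± 0.14 (adjusted p = 0.859), and Fosl1, an AP-1 subunit of the delayed response, by -0.18 ± 0.22 (adjusted p = 0.933). Of 11 AP-1 and related genes tested besides the score genes, 3 were higher and 0 lower at an unadjusted p under 0.05. Over all genes tested, 2.24% were higher and 4.22% lower at that limit. The median log2 fold change of these 11 genes was 0.03, beside -0.01 over all genes.

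**Figure D2:**
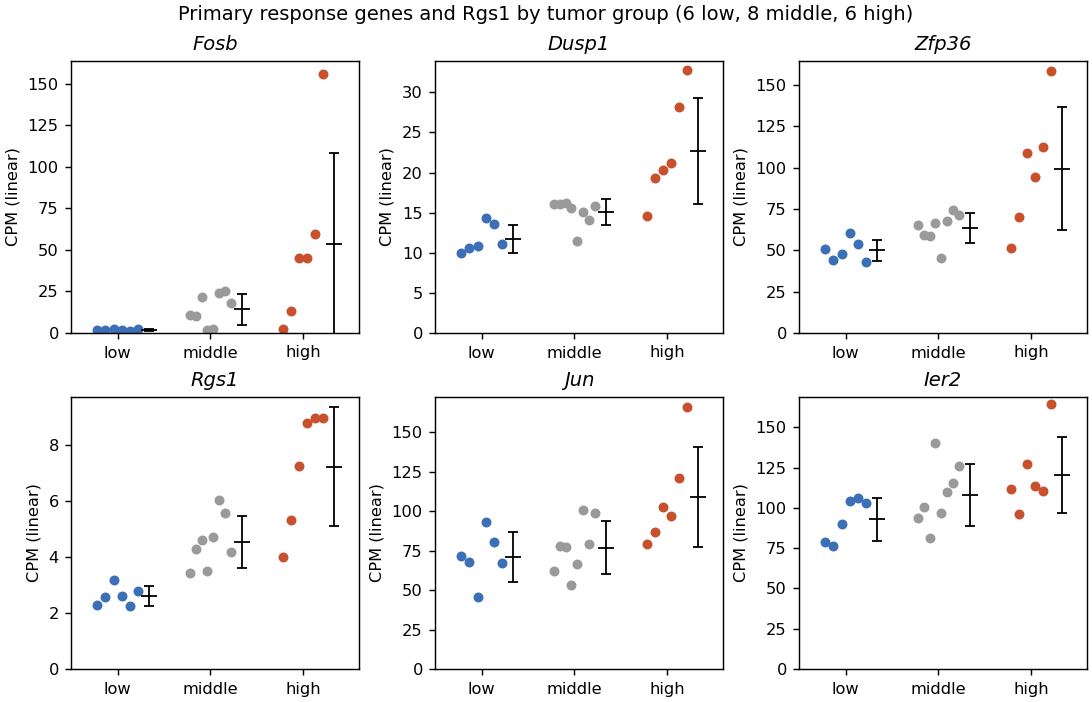
CPM (linear axis from 0) of Fosb, Dusp1, Zfp36, Rgs1, Jun and Ier2 in each tumor of the low, middle and high groups, with the mean and SD of each group beside the points. For Fosb, Dusp1 and Rgs1 every high tumor lies above every low tumor, while for Zfp36, Jun and Ier2 the groups overlap.

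Among the remaining primary response transcription factors, 2 of 16 tested were higher at an unadjusted p under 0.05 and 0 lower, with a median log2 fold change of 0.03. Ier2, a short-lived nuclear regulator, ran from 96.1 to 164 CPM in high and from 76.1 to 106 CPM in low tumors (log2 fold change 0.38 ± 0.13, adjusted p = 0.706). Klf2, a Krüppel-like factor, ran from 9.69 to 15.8 CPM in high and from 5.92 to 12.3 CPM in low tumors (0.50 ± 0.18, adjusted p = 0.721). Nr4a1, an orphan nuclear receptor induced by the same signals, was high in all groups, at 141 to 179 CPM in high and 117 to 169 CPM in low tumors (0.21 ± 0.10, adjusted p = 0.775). Egr2, a relative of Egr1, differed by 0.20 ± 0.17 (adjusted p = 0.88).

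Of the genes that end the response, Dusp1 and Zfp36 were called higher by DESeq2. Dusp1, a phosphatase that removes the activating phosphates of MAP kinases, held 14.5, 19.3, 20.3, 21.2, 28.2 and 32.8 CPM in high tumors and 9.91 to 14.3 CPM in low tumors, with no overlap. Its log2 fold change was 0.96 ± 0.17 (edgeR adjusted p = 0.197, DESeq2 adjusted p = 0.000121). The median of the 15 ERK feedback genes was 0.07. Of them, 2 were higher and 0 lower at an unadjusted p under 0.05, beside 2.24% and 4.22% of all genes. The other was Spred2, an inhibitor of Ras signaling, which was higher by 0.22 ± 0.08 (adjusted p = 0.721). Zfp36, which binds AU-rich messages such as that of Fos and sends them to decay, ran from 51.3 to 159 CPM (median 102) in high and from 42.9 to 60.4 CPM (median 49.2) in low tumors. Only Lo_11 among the high tumors fell within the low range. The log2 fold change of Zfp36 was 0.998 ± 0.202 (edgeR adjusted p = 0.392, DESeq2 adjusted p = 0.0012), and the other 6 genes of the mRNA decay list, none of them past an unadjusted p of 0.05, left its median at 0.03. Without Lo_11, edgeR called 4 genes, Fosb, Rgs1, Dusp1 and Zfp36, the last 2 with an adjusted p of 0.0364.

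Rgs1, a regulator that quenches G protein signals and is known from leukocytes, was called higher by DESeq2 too. It ran from 3.99 to 8.96 CPM (median 8.02) in high and from 2.23 to 3.16 CPM (median 2.58) in low tumors, and the 8 middle tumors from 3.42 to 6.03 CPM. High and low tumors did not overlap. Its log2 fold change was 1.47 ± 0.20 (edgeR adjusted p = 0.0644, DESeq2 adjusted p = 1.83e-08). It passed in 7 of 26 other edgeR settings, over which its adjusted p ran from 0.00283 to 0.9998, and in all 12 DESeq2 fits without 1 tumor. Of 6 leukocyte markers, 1 was higher and 2 were lower at an unadjusted p under 0.05, with a median log2 fold change of -0.12. The one higher was Lcp1 (L-plastin), and those lower were Ptprc (CD45) and the tetraspanin Cd53 (-0.30 ± 0.14, adjusted p = 0.773). Ptprc was at 16.2 to 21.97 CPM in high and 19.3 to 31.5 CPM in low tumors (-0.43 ± 0.12, adjusted p = 0.647), and Lcp1 at 428 to 654 against 292 to 499 CPM (0.42 ± 0.14, adjusted p = 0.707). The part of leukocytes in the Rgs1 difference was not tested.

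The other genes that DESeq2 called higher belong to no primary response list. Gm15662, a gene model that overlaps Tmtc2, held 0.786, 5.19, 5.75, 8.37, 8.94 and 25.9 CPM in high tumors and 0.299 to 0.987 CPM in low tumors. Its lowest high tumor was Hi_1, the tumor with the most Fos, and that tumor alone overlapped the low tumors. The log2 fold change was 3.91 ± 0.63 (edgeR adjusted p = 0.119, DESeq2 adjusted p = 6.95e-06), and without Hi_1 edgeR called it (adjusted p = 0.00997). Cpm, a membrane carboxypeptidase, ran from 53.6 to 169 CPM in high and from 17.2 to 56.6 CPM in low tumors (1.51 ± 0.32, edgeR adjusted p = 0.392, DESeq2 adjusted p = 0.0416), and DESeq2 kept it in 4 of 12 fits without 1 tumor. Cldn4, a tight junction protein of luminal cells, was at 103 to 117 CPM in high and 68.2 to 107 CPM in low tumors (0.45 ± 0.10, DESeq2 adjusted p = 0.0378), and DESeq2 kept it in 3 of 12 such fits. The remaining genes that DESeq2 called higher were Bpifb4, Hist1h1c, Epdr1, Ak1 and Morc4.

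None of 14 transcription factors that bind immediate-early promoters, serum response factor, the Elk proteins and CREB with its coactivators among them, reached an unadjusted p of 0.05, and their median log2 fold change was -0.03. Of 9 ligands of the EGF family, Hbegf, itself a primary response gene, was higher at an unadjusted p under 0.05. It ran from 29.5 to 39.0 CPM in high and from 19.3 to 31.0 CPM in low tumors (0.37 ± 0.12, adjusted p = 0.705). Of the 4 ErbB receptors, Erbb4 was lower at an unadjusted p under 0.05, at 3.58 to 9.16 CPM in high and 3.03 to 20.8 CPM in low tumors (-0.91 ± 0.36, adjusted p = 0.735), and the list median was -0.14. Of 14 targets of serum response factor with its MRTF coactivators or of YAP, 1 was higher and 2 were lower at an unadjusted p under 0.05. The one higher was Cyr61, a matricellular protein (0.33 ± 0.13, adjusted p = 0.735), and the list median was -0.01.

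The 25 genes that DESeq2 called lower in high tumors (0.152% of those tested) included H2 genes of the major histocompatibility complex (MHC). They were H2-K1, H2-D1, H2-Q1, H2-Q4, H2-Q5, H2-Q6 and H2-Q7, and the H2-Q genes lie close together on chromosome 17. These are named as a description, without the share of H2 genes tested that was called. Nlrc5, the transactivator of MHC class I genes, ran from 4.45 to 12.9 CPM (median 8.11) in high and from 15.4 to 41.6 CPM (median 19.6) in low tumors, with no overlap. Its log2 fold change was -1.38 ± 0.28 (edgeR adjusted p = 0.392, DESeq2 adjusted p = 0.000389), and DESeq2 called it in all 12 fits without 1 tumor. H2-K1 and H2-D1 encode classical class I heavy chains. H2-K1 was at 151 to 238 CPM in high and 254 to 467 CPM in low tumors, again without overlap (-0.84 ± 0.19, DESeq2 adjusted p = 0.0114). H2-D1 was at 254 to 551 CPM in high and 530 to 991 CPM in low tumors (-0.88 ± 0.22, DESeq2 adjusted p = 0.0265). DESeq2 called H2-K1 in 9 and H2-D1 in 6 of the 12 fits without 1 tumor. The H2 class I genes resemble each other in sequence, and the reads of BALB/c and FVB alleles were aligned to the C57BL/6 genome. The split of reads among H2 genes is thus uncertain.

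Ddx58, the sensor of viral RNA known as RIG-I, ran from 21.4 to 41.7 CPM in high and from 42.6 to 72.6 CPM in low tumors, without overlap (-0.85 ± 0.17, DESeq2 adjusted p = 0.0022). Stat2, a transcription factor of the interferon response, was called by DESeq2 as well (-0.75 ± 0.17 by edgeR, DESeq2 adjusted p = 0.0265). Without 1 tumor, DESeq2 called Ddx58 in all 12 fits and Stat2 in 8 of 12.

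Of 11 interferon-stimulated genes, 10 were lower and 0 higher at an unadjusted p under 0.05, beside 4.22% and 2.24% of all genes. DESeq2 called 0 of the 11, and their median log2 fold change was -1.13 beside -0.01 over all genes. Isg15, a ubiquitin-like modifier whose promoter is shown above, ran from 5.17 to 18.3 CPM (median 10.9) in high and from 9.19 to 47.7 CPM (median 18.8) in low tumors (-1.13 ± 0.37, adjusted p = 0.706). Ifit3, which binds foreign RNA with other IFIT proteins, ran from 3.55 to 13.6 CPM in high and from 5.46 to 58.8 CPM in low tumors (-1.55 ± 0.52, adjusted p = 0.707). Irf7, a factor that amplifies interferon production, differed by -1.32 ± 0.42 (adjusted p = 0.706). The groups overlapped in all 3, and among the low tumors Lo_2 and Lo_4 held the highest values of each. Without Lo_2 the median of the list was -0.76, with 5 of 11 genes past an unadjusted p of 0.05. The values also depended on how the tumors were scored: the median was -0.48 with a score without Junb and -0.40 with totals that kept Yam1 and AY036118, and 0 of 11 genes passed an unadjusted p of 0.05 in either. Markers of T cells, a source of interferon, were scarce, the 8 genes summing to 3.38 to 5.76 CPM in high and 5.12 to 9.63 CPM in low tumors, and their part in the result was not tested.

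**Figure D3:**
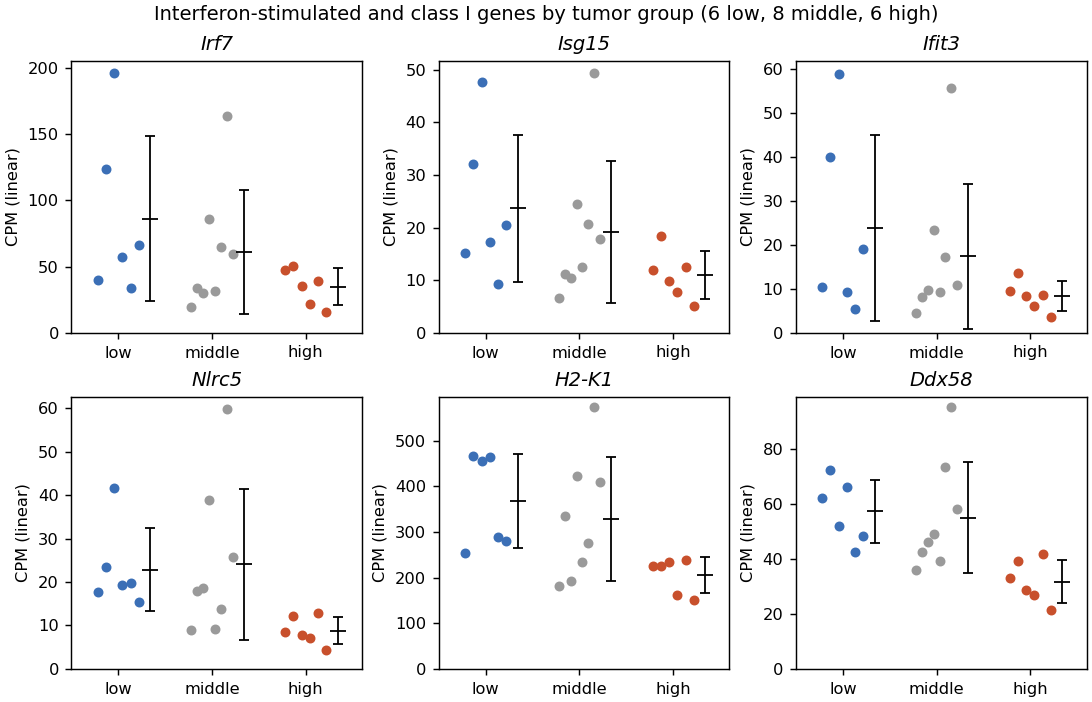
CPM (linear axis from 0) of Irf7, Isg15, Ifit3, Nlrc5, H2-K1 and Ddx58 in each tumor of the low, middle and high groups, with the mean and SD of each group beside the points. Every high tumor lies below every low tumor for Nlrc5, H2-K1 and Ddx58, and for each of the 6 genes the middle tumors reach above the highest high tumor.

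Other programs that could accompany a stressed or signaling tumor were described from their own lists. Of 16 genes of the integrated stress response (median 0.12), 2 were higher and 0 lower at an unadjusted p under 0.05. Over all genes, 2.24% were higher and 4.22% lower at that limit. Ppp1r15a, the phosphatase subunit GADD34 that restores translation after stress, ran from 18.3 to 26.4 CPM in high and from 11.4 to 19.02 CPM in low tumors (0.51 ± 0.13, adjusted p = 0.647), and its gene overlaps Tulp2. Ddit4, an inhibitor of mTOR that answers both stress and hypoxia, ran from 41.2 to 117 CPM in high and from 38.5 to 76.5 CPM in low tumors (0.61 ± 0.23, adjusted p = 0.729). All 11 hypoxia genes had a positive log2 fold change, with a median of 0.32, but 2 passed an unadjusted p of 0.05. They were Adm, the vasodilator peptide adrenomedullin (0.94 ± 0.27, adjusted p = 0.648), and Pgk1, a glycolytic enzyme (0.41 ± 0.19, adjusted p = 0.773). Leaving out each tumor in turn moved the number of hypoxia genes past that limit between 1 and 7. None of 13 heat shock genes and chaperones passed it (median -0.01).

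Of 14 NF-κB targets and cytokines tested, 2 were higher and 2 lower at an unadjusted p under 0.05, with a median of -0.05. Cxcl2, a neutrophil attractant, was scarce in every tumor, at 0.283 to 0.822 CPM in high and 0.074 to 0.454 CPM in low tumors (1.25 ± 0.42, adjusted p = 0.707). Ccl7, a monocyte attractant, and Icam1, an adhesion molecule, differed by -0.73 ± 0.25 and -0.45 ± 0.18 (adjusted p = 0.708 and 0.735). Of 10 glucocorticoid targets, 1 was higher and 0 lower (median 0.19). Of 15 circadian genes, 2 were higher and 2 lower (median 0.05). They included the clock repressor Per1, which is also an immediate-early gene (0.39 ± 0.16, adjusted p = 0.735), and Bhlhe41, another clock repressor (-0.68 ± 0.28, adjusted p = 0.735). None of 14 proliferation genes passed an unadjusted p of 0.05 (median 0.11).

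**Figure D4:**
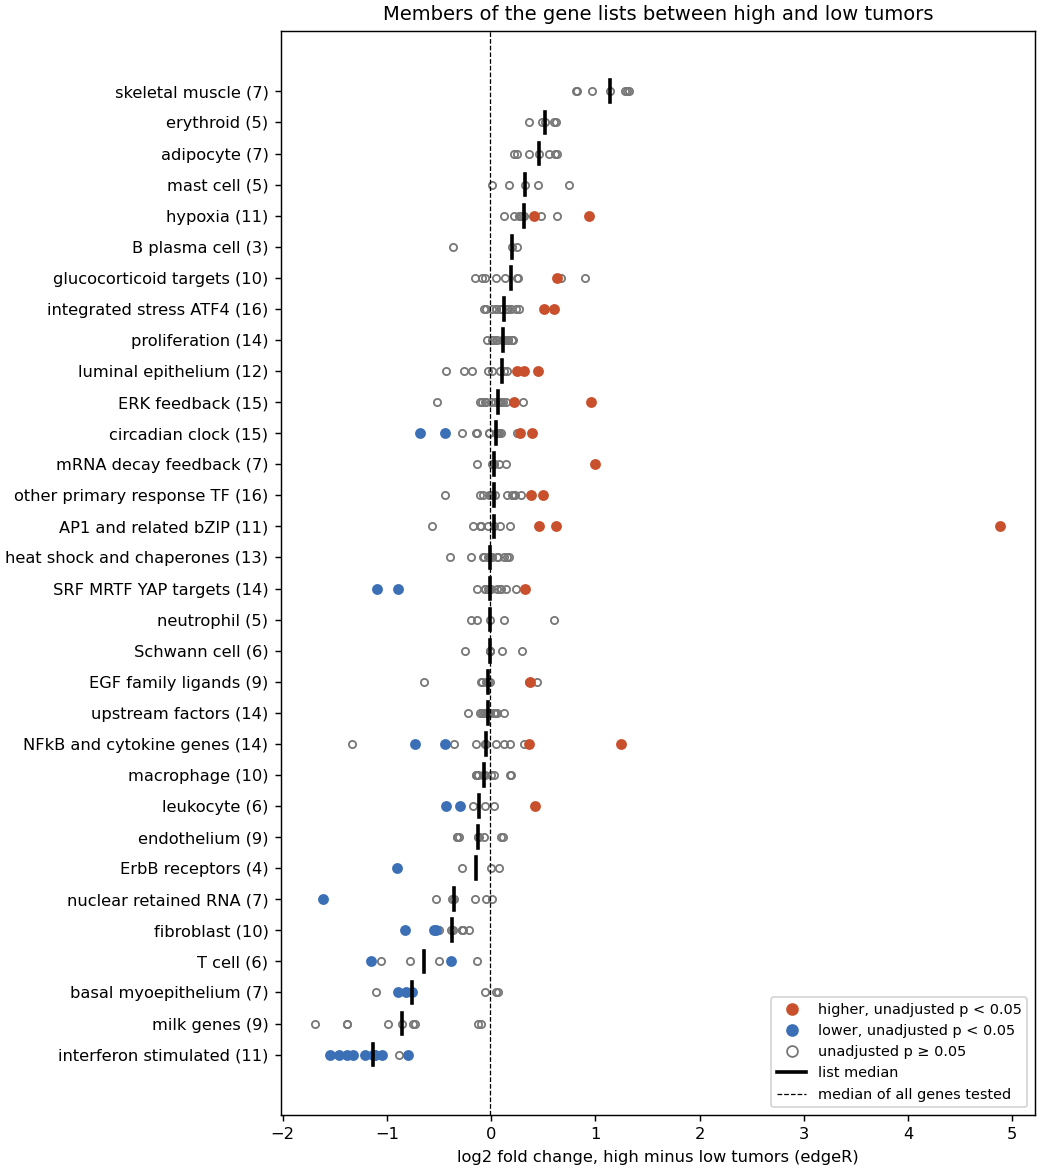
Log2 fold change between high and low tumors (edgeR, horizontal axis) of each tested member of the gene lists, ordered by list median, with the number of members tested in brackets. Filled points have an unadjusted p under 0.05, black bars are list medians and the dashed line is the median of all 18652 genes tested. The interferon-stimulated list has the lowest median (-1.13), skeletal muscle the highest (1.15, no member past the limit), and Fosb lies farthest to the right, at 4.89.

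Cell type markers were examined because a tumor piece holds more than epithelium. Fewer cells of a type and less RNA per cell cannot be told apart here, nor in any result above. No marker of any list was at 0 in every tumor. Luminal markers had a median log2 fold change of 0.10, with 3 of 12 higher at an unadjusted p under 0.05. Over all genes, 2.24% were higher and 4.22% lower at that limit. The luminal sum ran from 4222 to 5164 CPM in high and from 3582 to 4539 CPM in low tumors. Basal markers had a median of -0.76, with 3 of 7 tested lower, among them Trp63, the p63 transcription factor (1.74 to 3.79 against 2.04 to 5.34 CPM, -0.81 ± 0.25, adjusted p = 0.648), and Oxtr, the oxytocin receptor (-0.76 ± 0.26, adjusted p = 0.708). Of the 7, 5 had a negative and 2 a positive log2 fold change. Without single tumors the basal median moved between -0.83 and -0.14. All 10 fibroblast markers had a negative log2 fold change (median -0.37) and 3 passed an unadjusted p of 0.05. Their sum ran from 851 to 2510 CPM in high and from 1913 to 2980 CPM in low tumors. Lum, a collagen-binding proteoglycan, was at 5.71 to 21.9 CPM in high and 18.4 to 38.9 CPM in low tumors (-0.82 ± 0.28, adjusted p = 0.708), and Pdgfra, a growth factor receptor of fibroblasts, differed by -0.54 ± 0.19 (adjusted p = 0.721). The part of fibroblasts in the other results was not tested.

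T cell markers had a median of -0.64, with 2 of 6 tested lower at an unadjusted p under 0.05, beside 4.22% of all genes. The 2 were Lck, the kinase of the T cell receptor (-0.38 ± 0.15, adjusted p = 0.735), and Cd8a, the coreceptor of cytotoxic cells. Cd8a was at 0.0225 to 0.382 CPM in high and 0.132 to 0.98 CPM in low tumors. Cd8a had 1 to 42 counts per tumor, so its lowest values rest on very few reads. Macrophage markers differed little (median -0.07, 0 of 10 past an unadjusted p of 0.05). Endothelial (-0.13), neutrophil (-0.01), B and plasma cell (0.20), mast cell (0.32), adipocyte (0.46), erythroid (0.52) and Schwann cell (-0.01) medians rested on no member past that limit. Skeletal muscle genes summed to 2.11 to 1076 CPM in high and 1.66 to 586 CPM in low tumors, so that muscle in the piece varied greatly within both groups. Milk genes had a median of -0.86 with 0 of 9 past the limit, and without single tumors this median moved between -1.13 and 0.28. Nuclear-retained RNAs had a median of -0.36, with 1 of 7 past the limit, Snhg11 (0.0225 to 0.371 against 0.23 to 1.07 CPM, adjusted p = 0.648). Snhg11 too was scarce, with 1 to 46 counts per tumor.

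The 8 middle tumors, whose scores ran from -0.41 to 0.25, offered samples that the comparison had not used. Of the 37 genes that DESeq2 called, 6 had a Pearson r with the score of the same sign as their fold change, 5 of the 12 higher and 1 of the 25 lower genes. Over all genes tested the share of the same sign was 47.5%. By Spearman's rho, 8 of 37 had the same sign, and without the 2 tumors farthest from the median score 9 had. Fosb had an r of 0.272 (exact permutation p = 0.503) and a rho of 0.429 (p = 0.299), and without the 2 farthest tumors its r was -0.125. Rgs1 had an r of 0.435 (exact permutation p = 0.278) and a rho of 0.50 (p = 0.216), and an r of 0.623 without them. Zfp36 had an r of 0.462 (exact permutation p = 0.253) and a rho of 0.643 (p = 0.0962), and an r of 0.031 without them. Dusp1 had an r of -0.222 (exact permutation p = 0.636) and a rho of -0.595 (p = 0.132). For none of these genes was a relation with the score shown in the middle tumors.

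Most of the lower genes had an r opposite in sign to their fold change in these tumors. Ddx58 had an r of 0.730 (exact permutation p = 0.0394) and a rho of 0.786 (p = 0.0279), and C4a, a complement gene, an r of 0.813 (exact permutation p = 0.0184) and a rho of 0.738 (p = 0.0458). Without the 2 farthest tumors, r was 0.759 for Ddx58 and 0.417 for C4a. Over the 37 genes, the Benjamini-Hochberg adjusted p of both was 0.290. None of the 37 passed this adjustment and 5 had an exact p under 0.05. The scores of these tumors spanned a narrow range.

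Read as a trend over all 20 tumors, the score had 11 of 20459 genes pass an adjusted p of 0.05 by edgeR (0.0538%), 9 rising (0.044%) and 2 falling (0.00978%). These 20 tumors include the 12 compared above, so the trend is not independent of them. Dusp1 rose by 0.50 ± 0.05 log2 units per unit of score (SE, adjusted p = 2.57e-06), Zfp36 by 0.54 ± 0.05 (2.73e-06), Rgs1 by 0.70 ± 0.08 (8.06e-05) and Fosb by 1.96 ± 0.27 (0.00124). Jun rose by 0.38 ± 0.06 (0.00571), Ier2 by 0.26 ± 0.05 (0.0195) and Ppp1r15a by 0.29 ± 0.05 (0.0195). Of the 9 rising genes, 7 were thus Rgs1 and 6 members of the lists of primary response and stress genes. Nlrc5 (-0.64 ± 0.24, adjusted p = 0.537) did not pass this test over the 20 tumors. Without Hi_1, 7 genes passed, and Jun, Ier2 and Ppp1r15a were not among them. They were Dusp1, Fosb, Rgs1 and Zfp36, with Krt1, Krt10 and Gm11940, which are described below for Hi_3. Without Hi_3, 10 passed, and neither Ier2 nor Ppp1r15a was among them. These were Dusp1, Fosb, Jun, Rgs1 and Zfp36, with Fam213b, Megf6, Mmel1, Rasef and Wrap73, chromosome 4 genes raised in Hi_1.

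The last 2 rising genes, Megf6 and Mmel1, lie close together on chromosome 4, and their trend rested on Hi_1. Megf6, a protein with EGF-like repeats, was at 2008 CPM in Hi_1 and at most 387 CPM in any other tumor, and without Hi_1 its log2 fold change was 0.04 (adjusted p = 0.977). In Hi_1, a run of 14 neighboring expressed genes from Wrap73 to Nadk (chromosome 4, 154142372 to 155591001, mm10) lay 2.10 to 2.92 log2 units above the median of the other tumors, with a median of 2.43. The other expressed genes of chromosome 4 had a median of -0.17 in that tumor, and 3 of them were also more than 1 log2 unit above the other tumors' median. Rasef (170 CPM, at most 56.1 CPM elsewhere) and Kdm4c (93.1 CPM, at most 28.5 CPM elsewhere), which lie close together far from the run, were 2.07 and 2.02 log2 units above it. The third was Jun, at 1.06. Each of the 14 was at least 2.57 times its highest value in any other tumor. Mmel1, a membrane endopeptidase that lies inside the run, was at 4.74 CPM in Hi_1 and at most 0.68 CPM elsewhere. The number of DNA copies was not measured.

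**Figure D5:**
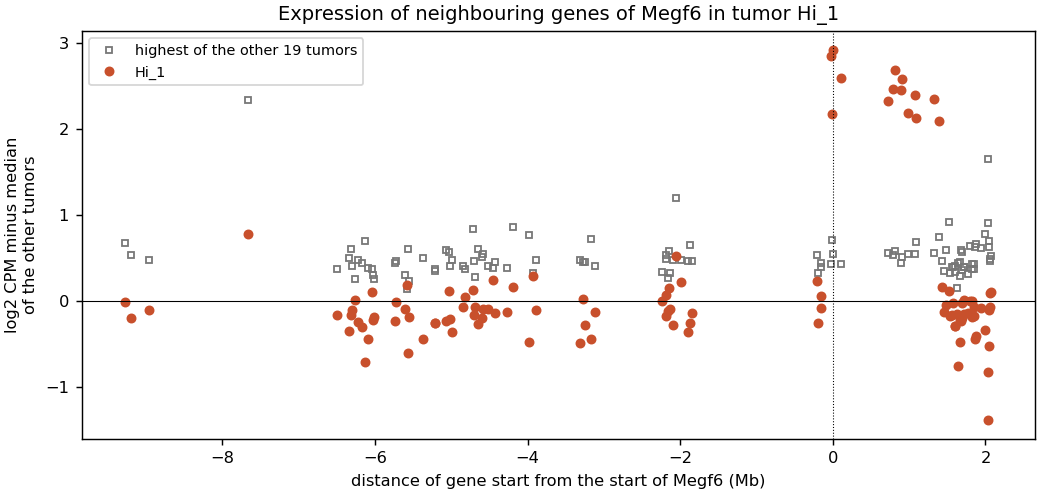
Log2 CPM of expressed genes in Hi_1 (filled) minus the median of the other tumors, and the highest such difference of any other tumor (open squares), against the distance of the start of each gene from the start of Megf6 in Mb. A run of 14 genes lies 2.10 to 2.92 log2 units up in Hi_1, with the genes on either side near 0.

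The 2 genes that fell with the score, Krt1 and Gm11940, rested on Hi_3, the tumor with the lowest score. Krt1, a keratin of the upper layers of skin, was at 158 CPM in Hi_3, 5.35 CPM in Hi_8 and at most 0.434 CPM in every other tumor. Krt10, its partner, which overlaps Gm11940, was at 162 CPM in Hi_3, 14.5 CPM in Hi_8 and between 3.70 and 5.82 CPM elsewhere. Krt14, a keratin of basal cells, was at 27.0 CPM in Hi_3, and 0 genes fell with the score once that tumor was left out.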

How the data were processed

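RNA of 20 breast tumors was sequenced from both ends. The authors cut reads to 100 bases and mapped them with TopHat2 2.0.12 inside MapRseq, on mm10. The submitters' processing notes also name featureCounts 1.4.4. The deposited values are the authors' unnormalized read counts for 43346 genes in each tumor. The strand setting and annotation release are not given in the sources used here, so overlapping genes, antisense genes and near-identical copies are uncertain. The table also lists a length for each gene as deposited, which was not used in any test. RNA from all tumors was processed together, and each tumor came from its own mouse.

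The score and the groups were computed from these counts as CPM with a pseudocount of 1. The 4 score genes, Yam1 and AY036118 were left out of all fits. Groups were compared with edgeR 4.0.16 (filterByExpr, TMM, quasi-likelihood test) with Benjamini-Hochberg adjustment over all genes tested at 0.05, and, as an alternative, DESeq2 1.42.0, in R 4.3.3. Log2 fold changes and SEs are those of edgeR. CPM per tumor uses totals without Yam1 and AY036118 and no TMM factor. The trend used the score as a number in edgeR. Correlations and single values were tested with two-sided exact permutation tests (Python 3.11.15, scipy 1.17.1, numpy 2.4.6, pandas 2.3.3). The edgeR fit of 6 against 6 tumors was tested on simulated counts. It recovered 137 of 200 genes changed by 1 log2 unit, with 7 false calls. The DESeq2 fits and the trend were not tested in this way. Genes under the filter on low counts were not tested, and p-values rest on the spread between tumors. Figures were drawn with matplotlib 3.10.9.

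The tumors, the gene lists and the tests were chosen with earlier results of these data known, so no list is independent evidence. A member of the interferon-stimulated list is not reported here and is left out of its counts. The rule for named genes took the score genes, up to 10 genes per direction past the threshold with a mean CPM of at least 5 (there were none), the members of the primary response lists, and up to 4 members of every other list with the smallest p. Of these, the text gives the genes that bear on a result and the rest by counts, and the genes that DESeq2 or the trend called, with the keratins and the neighbors of Megf6, were named after their values were seen. The alternatives were other size factors, filters, totals, scores, group sizes, covariates, tumors within each label and leaving out each tumor.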

Additional observations from a re-analysis of the deposited data

Results flagged for a closer look

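Within groups of 6 or 8 tumors, 165 sets of values, nearly all of named genes and none of the score genes, were searched for a single tumor set apart by Dixon's test at the 95% level. It picked out 18. Chance alone picks out about 1 in 20 sets, but the keratins and Megf6 had been named after their values were seen, so the 18 cannot be set against that share. No explanation was tested.

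Hi_1 and Hi_3, the tumors with the highest and the lowest score, were set apart by 2 and 3 genes. In Hi_1, Fosb stood at 156 CPM beside 59.2 CPM in the next high tumor, and Megf6 at 2008 beside 299 CPM. In Hi_3, Krt1 stood at 158 beside 5.35 CPM in the next low tumor, Krt10 at 162 beside 14.5 CPM and Krt14 at 27.0 beside 7.33 CPM. Megf6 also stood apart in the low tumor Hi_5, at 387 CPM beside 257 CPM.

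The middle tumor Lo_8 combined little Fos (43.5 CPM) and Fosb (1.81 CPM) with high values of 4 other inducible genes. Nr4a1 was at 222 CPM beside 152 CPM in the next middle tumor, Per1 at 123 beside 73.3 CPM, Ddit4 at 168 beside 72.5 CPM and Ppp1r15a at 20.7 beside 17.8 CPM. Its Junb, at 129 CPM, was the highest of the middle tumors. Dusp1 was low in Hi_11, at 11.5 CPM beside 14.1 CPM in the next middle tumor.

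Interferon-stimulated genes stood out in the middle tumor Lo_1, with Isg15 at 49.4 beside 24.5 CPM in the next, Ifit3 at 55.5 beside 23.4 CPM and Irf7 at 163 beside 86.0 CPM. In the low tumor Lo_2, Nlrc5 was at 41.6 beside 23.5 CPM and Stat2 at 65.5 beside 43.0 CPM. Trp63 was at 3.79 CPM in the high tumor Hi_6 beside 2.13 CPM, and Gm15662 at 25.9 CPM in the high tumor Lo_3 beside 8.94 CPM.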

How the results depend on the processing

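The count of 0 genes by edgeR held with other size factors, a mean CPM of at least 1, totals with Yam1 and AY036118, the Lo or Hi label as a term, 7 against 7 tumors, scores without Fos or Egr1, and Lo tumors alone. With no filter 3 genes were called, and 2 with the share of Yam1 and AY036118 as a term, with 5 against 5 tumors, and with scores without Junb or Atf3. Among Hi tumors 1 was called, and with the score as a number 11 were (9 higher, 2 lower). DESeq2 called 37 (12 higher, 25 lower). Leaving out each of the 12 tumors gave 0 to 4 genes by edgeR, all higher in high tumors (4 without Lo_11, 2 without Lo_6, 1 without Hi_1 and 0 otherwise). With DESeq2, an alternative chosen after seeing the data, it gave 17 to 102 genes (17 without Hi_7, 18 without Hi_1, 20 without Lo_3, 21 without Lo_4, 75 without Hi_8 and 102 without Lo_2). Of the 37 genes, 11 were called in all of these fits. Without Hi_1 the trend called 7 genes, and the cause of these changes was not tested. All 74 named genes kept their direction in each setting that gave a value. The difference in the share of Yam1 and AY036118 turned from 0.412 to -1.03 percentage points with 5 against 5 tumors (exact permutation p = 0.817), neither past a threshold. A test of the interaction with the Lo or Hi label called 0 of 18652 genes by edgeR, with 649 at an unadjusted p under 0.05. No paired analysis was possible because the high and low tumors share 1 title number, fewer than the 2 a block needs.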

Other observations

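Several genes that DESeq2 called lower in high tumors and that no list held are described here by their values, having been chosen after these were seen. Some are known to be induced by interferon. Gbp2, a guanylate-binding protein, ran from 13.1 to 33.1 CPM in high and from 28.5 to 74.2 CPM in low tumors (log2 fold change -0.99 ± 0.26, SE). Parp14, an ADP-ribosyltransferase, ran from 14.2 to 36.0 CPM in high and from 38.5 to 70.3 CPM in low tumors, without overlap (-0.89 ± 0.21). Uba7, the enzyme that activates Isg15 for conjugation, ran from 18.6 to 35.3 CPM in high and from 33.7 to 75.3 CPM in low tumors (-0.78 ± 0.20).

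Others are known for different roles. Celsr2, a cadherin of planar cell polarity, ran from 113 to 153 CPM in high and from 144 to 246 CPM in low tumors (-0.53 ± 0.12). Agrn, the basement membrane proteoglycan agrin, ran from 123 to 157 CPM in high and from 155 to 286 CPM in low tumors (-0.54 ± 0.12). Fam181b was narrow in both groups, at 2.83 to 3.77 CPM in high and 4.83 to 5.74 CPM in low tumors (-0.68 ± 0.12), and it was the one of these 6 genes that DESeq2 called in all 12 fits without 1 tumor. Of these fits, Parp14 was called in 8, Celsr2 and Agrn in 6, and Gbp2 and Uba7 in 4. By edgeR none of these 6 genes passed an adjusted p of 0.05.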
